A study of Mus musculus with 6 samples.

Results

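The mitochondrial ribosomal protein genes are the nuclear genes whose products, with ribosomal RNAs made inside the organelle, build the mitochondrial ribosome. Members were taken by symbol, as Mrpl or Mrps followed by a digit, which gave 78 of the 19124 symbols in the deposited table, 49 with large-subunit (Mrpl) and 29 with small-subunit (Mrps) symbols. They hold 132 of its 34035 transcript entries, and the entry with the longest span was used for each symbol. The rule used names and no measured value.

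RNA was measured in cells sorted for CD31, a surface protein of endothelium, from retinas of C57BL/6 pups at postnatal day 7. The 3 KO pups are labelled Pdgf{beta}CreERT2pos Rnf20p/p and the 3 Ctrl pups Pdgf{beta}CreERT2neg Rnf20p/p, so both groups carry the Rnf20p/p alleles, which the labels do not explain further. Both groups received 75 µg Z-4-HO-Tamoxifen each day from day 1 to day 4. That drug activates CreERT2, a recombinase that the Pdgfb promoter drives in endothelium, so the Ctrl pups lack the recombinase but not the drug. Each library came from a different pup. The series asks how the level of Rnf20, a ubiquitin ligase that modifies histone H2B, affects VEGF and Notch signals while retinal vessels sprout.

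The mitochondrial ribosome translates the few proteins encoded by mitochondrial DNA, all of them core subunits of the respiratory chain and ATP synthase. It descends from a bacterial ribosome: some of its proteins have bacterial homologs, and others are mitochondria-specific and were added in the course of eukaryote evolution. Endothelial cells of growing vessels rely largely on glycolysis for ATP, and respiration in them is known to serve proliferation and biosynthesis.

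Of the 78 members, 2 rose in KO and none fell: Mrpl12 and Mrpl36, both of the large subunit, had an adjusted p below 0.05 (edgeR's quasi-likelihood test, Benjamini-Hochberg). All 78 passed the filter on low counts, and 14 members (17.9%) had an unadjusted p below 0.05, against 30.5% of the 16217 genes tested. Past the adjusted threshold of 0.05 were 5.85% of all genes tested as higher in KO and 4.44% as lower (10.3% in either direction). The members' log2 fold changes of KO over Ctrl had a median of 0.22 with quartiles of −0.09 and 0.52, beside a median of 0.03 with quartiles of −0.57 and 0.70 over all genes tested. Estimates were above 0 for 55 members (70.5%), beside 51.0% of all genes tested. The median size of the log2 fold change, whatever its sign, was 0.35 for the members and 0.63 for all genes. In 15 members (19.2%) every KO library was above every Ctrl library, and in 6 (7.69%) every KO library was below, against 19.0% and 18.9% of all genes tested. The share of members without overlap on the higher side was thus near that of all genes.

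**Figure D1:**
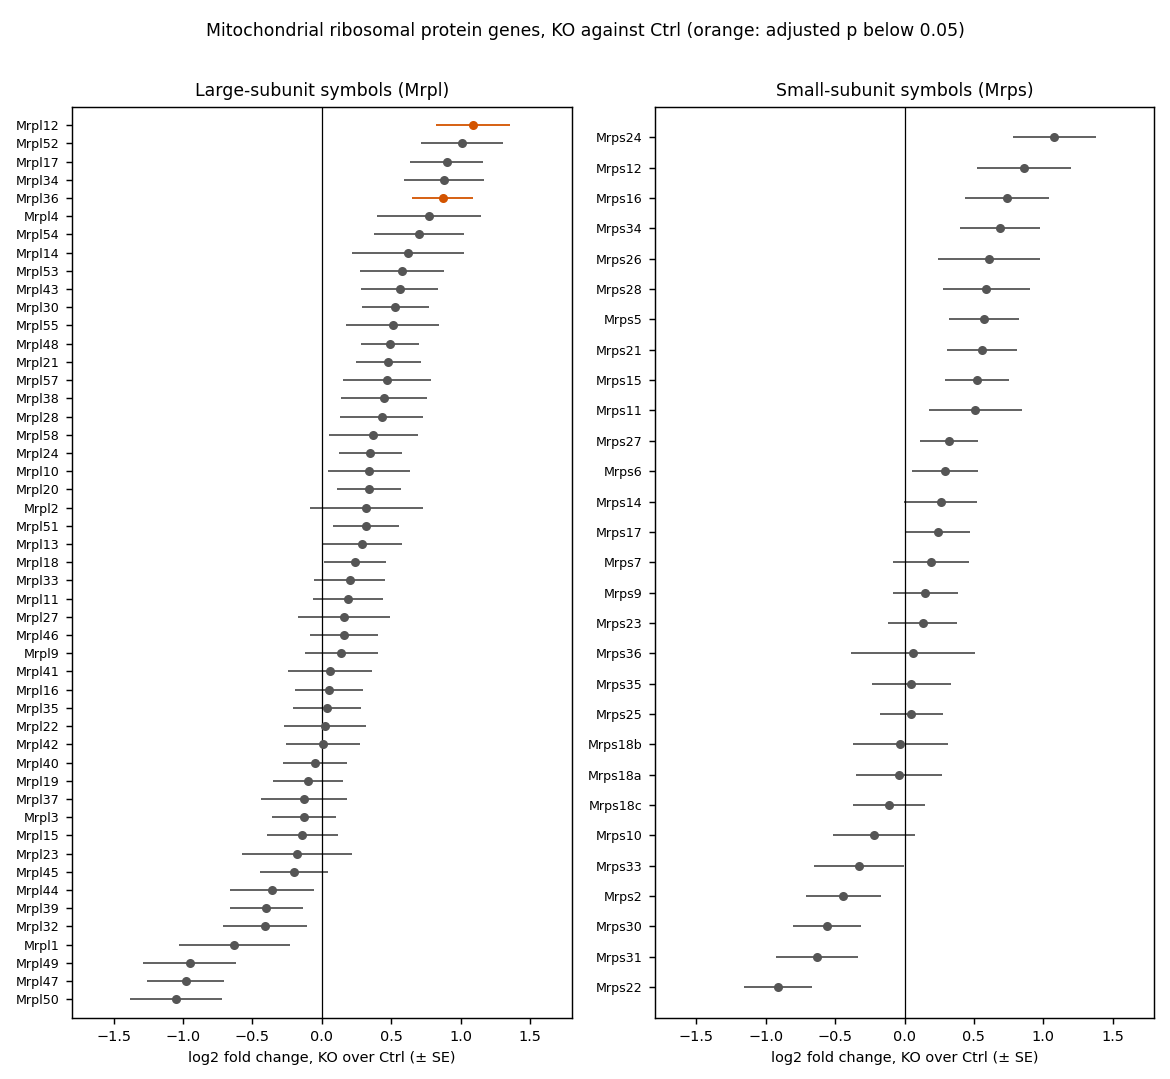
Log2 fold change of KO over Ctrl for each of the 78 members (points) with its standard error (bars), Mrpl symbols on the left and Mrps symbols on the right, from the highest at the top. Mrpl12 (1.09) and Mrpl36 (0.87), in orange, passed the adjusted threshold of 0.05, and the lowest estimate is that of Mrpl50 (−1.05).

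Summed over the members, the level was 5018, 5616 and 7227 CPM (each count divided by its library's TMM-scaled total and set to a common size) in KO 1, 2 and 3, against 5944, 4473 and 4859.6 CPM in Ctrl 1, 2 and 3. The groups overlapped, and KO 3 was the highest library. The members took 0.512%, 0.509% and 0.687% of all counts in KO 1, 2 and 3, against 0.601%, 0.478% and 0.511% in Ctrl 1, 2 and 3. KO 3 gave the highest level of 45 members and Ctrl 2 the lowest level of 36, beside 15.9% and 11.2% of all genes tested for those libraries. The proportion between the subunits also overlapped between groups: the summed Mrpl level divided by the summed Mrps level was 2.02, 2.13 and 2.12 in KO 1, 2 and 3, against 2.17, 2.12 and 2.13 in Ctrl 1, 2 and 3. The median SD of log2 CPM among replicates was 0.38 in KO and 0.21 in Ctrl for members, and 0.52 in KO and 0.31 in Ctrl for all genes tested.

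Promoters of 4 members chosen by p are shown: both genes that rose, and the small- and large-subunit genes of smallest p among lower estimates. Each runs 5′ to 3′ on the gene's strand from 250 bases before to 50 bases after a RefSeq transcript start (GRCm38.p6), at chr11:120484387-120484686 (plus strand) for Mrpl12, chr13:73330759-73331058 (plus strand) for Mrpl36, chr9:98601630-98601929 (minus strand) for Mrps22 and chr3:32736706-32737005 (minus strand) for Mrpl47. Capitals mark matches to any of 4 motifs searched on both strands, and none of the marked matches overlap.
Mrpl12: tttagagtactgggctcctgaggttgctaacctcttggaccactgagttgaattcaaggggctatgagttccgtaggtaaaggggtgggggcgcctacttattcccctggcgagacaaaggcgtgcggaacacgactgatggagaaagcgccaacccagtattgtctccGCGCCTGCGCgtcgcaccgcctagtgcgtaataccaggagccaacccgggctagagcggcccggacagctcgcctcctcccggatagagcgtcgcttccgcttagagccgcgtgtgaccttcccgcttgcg
Mrpl36: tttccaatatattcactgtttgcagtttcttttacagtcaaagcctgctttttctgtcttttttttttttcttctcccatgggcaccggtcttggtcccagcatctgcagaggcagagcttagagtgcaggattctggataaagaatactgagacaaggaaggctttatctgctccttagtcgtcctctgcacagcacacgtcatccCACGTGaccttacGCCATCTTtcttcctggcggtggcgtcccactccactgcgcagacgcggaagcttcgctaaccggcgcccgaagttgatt
Mrps22: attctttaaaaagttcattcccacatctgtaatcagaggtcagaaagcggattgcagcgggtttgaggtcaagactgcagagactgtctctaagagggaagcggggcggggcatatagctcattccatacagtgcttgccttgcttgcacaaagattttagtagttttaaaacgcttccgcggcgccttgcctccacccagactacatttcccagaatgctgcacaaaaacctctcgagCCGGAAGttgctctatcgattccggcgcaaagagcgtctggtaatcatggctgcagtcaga
Mrpl47: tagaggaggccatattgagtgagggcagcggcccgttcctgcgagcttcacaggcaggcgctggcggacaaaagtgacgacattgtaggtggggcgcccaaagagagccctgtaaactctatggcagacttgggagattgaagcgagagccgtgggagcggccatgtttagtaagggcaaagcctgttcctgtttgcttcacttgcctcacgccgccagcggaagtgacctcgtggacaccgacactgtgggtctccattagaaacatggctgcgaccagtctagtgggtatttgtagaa

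The motifs were GCGC, any base, T and GCGC in a row for NRF1, CCGGAAG for ETS factors, AAGATGGC for YY1 and CACGTG for the E-box bound by Myc, factors known for binding promoters of nuclear mitochondrial genes. The Mrpl12 promoter holds the NRF1 motif from 81 to 72 bases before the start. The Mrpl36 promoter holds the E-box motif from 43 to 38 bases before the start and the YY1 motif on the other strand from 30 to 23 bases before it. The Mrps22 promoter holds the ETS motif from 11 to 5 bases before the start, and none of the 4 runs of letters is in the Mrpl47 window. RefSeq promoters were matched for 69 member genes, 75 promoters in all. The NRF1 motif was in 17.3% of these 75, beside 4.6% of the 32851 promoters of all genes. For the ETS motif the shares were 34.7% of member promoters and 8.86% of all promoters, for YY1 16.0% and 2.75%, and for the E-box 9.33% and 7.15%. Member promoters had a median GC content of 58.7%, beside 52.7% for all promoters, and a match is a description of letters only. The median log2 fold change was 0.47 for the 13 members with an NRF1 match and 0.19 for the 56 without, 0.34 for the 26 with an ETS match and 0.14 for the 43 without, 0.12 for the 12 with a YY1 match and 0.20 for the 57 without, and 0.32 for the 5 with an E-box match and 0.19 for the 64 without. No test was made of these medians.

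In the large subunit, 30 members have a bacterial homolog. Their median log2 fold change was 0.26, with 2 higher (6.67%, beside 5.85% of all genes tested) and 0 lower. The first of these 2 is Mrpl12 (NM_027204, chromosome 11, 120484637 to 120488754, plus strand, GRCm38.p6), the homolog of the bacterial L7/L12 stalk protein that recruits translation factors, and also known to bind mitochondrial RNA polymerase. Its level was 71.8, 109.8 and 118 CPM in KO 1, 2 and 3, against 51.6, 42.3 and 46.5 CPM in Ctrl 1, 2 and 3. Every KO library was above every Ctrl library, and KO 1 was the lowest of its group. The mean was 100 ± 24.8 CPM in KO and 46.8 ± 4.65 CPM in Ctrl (SD, n = 3 each), from 714 to 3456 counts per library. The log2 fold change was 1.09 (SE 0.265), and edgeR's quasi-likelihood test gave a Benjamini-Hochberg adjusted p = 0.0404. Over 13 alternative analyses its adjusted p ranged from 0.00461 to 0.18, and it passed in 7.

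Mrpl36 (NM_053163, chromosome 13, 73331009 to 73332178, plus strand, GRCm38.p6), the homolog of the small bacterial protein L36, had 58.0, 65.2 and 70.5 CPM in KO 1, 2 and 3, against 34.2, 34.0 and 37.5 CPM in Ctrl 1, 2 and 3. The groups did not overlap, and the replicates of each lay close together. The mean was 64.6 ± 6.29 CPM in KO and 35.2 ± 1.94 CPM in Ctrl (SD, n = 3 each), a log2 fold change of 0.87 (SE 0.221; edgeR's quasi-likelihood test, adjusted p = 0.0453). In the 13 alternatives its adjusted p lay between 0.00596 and 0.2, with 5 below the threshold. The span of this entry, 1169 bases, starts where the promoter window printed for it places the start, while the RefSeq gene reaches further upstream, to 73328503. Neither gene overlaps another gene of the table. With 3 against 3 libraries an exact permutation test of a single gene cannot give a two-sided p below 0.1.

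Other large-subunit members with a bacterial homolog had estimates of like size that did not pass. Mrpl17, the L17 homolog, had 120.2, 190.1 and 187 CPM in KO 1, 2 and 3, against 100, 85.0 and 81.5 CPM in Ctrl 1, 2 and 3 (log2 fold change 0.90, SE 0.262, edgeR adjusted p = 0.0632). Mrpl34, the L34 homolog, had 74.5, 105 and 129 CPM in KO 1, 2 and 3, against 67.5, 44.0 and 55.7 CPM in Ctrl 1, 2 and 3 (0.88, SE 0.29, edgeR adjusted p = 0.0852). In both genes the groups did not overlap, as in 37.9% of all genes tested, and KO 1 was nearest to the Ctrl libraries. Mrpl47, the homolog of bacterial L29 that sits at the polypeptide exit, had 16.0, 12.8 and 20.6 CPM in KO 1, 2 and 3, against 33.2, 30.2 and 33.7 CPM in Ctrl 1, 2 and 3 (−0.98, SE 0.278, edgeR adjusted p = 0.061). It was the lowest estimate among the members with a bacterial homolog, again without overlap.

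The 21 mitochondria-specific members of the large subunit had a median log2 fold change of 0.06, with 0 higher and 0 lower. In edgeR 4 (19.0%) had an unadjusted p below 0.05, beside 30.5% of all genes tested. DESeq2 called Mrpl50 and Mrpl52, beside 22.1% of all genes. The 21 include Mrps30 and Mrps18a, which structures place in the large subunit in spite of their symbols. Mrpl52 had 39.9, 64.1 and 76.2 CPM in KO 1, 2 and 3, against 31.6, 26.1 and 31.9 CPM in Ctrl 1, 2 and 3 (log2 fold change 1.01, SE 0.296, edgeR adjusted p = 0.0644). Mrpl50 had 62.4, 25.8 and 39.1 CPM in KO 1, 2 and 3, against 85.7, 86.6 and 90.7 CPM in Ctrl 1, 2 and 3 (−1.05, SE 0.332, edgeR adjusted p = 0.0782). Mrpl49 had 110.3, 138 and 247 CPM in KO 1, 2 and 3, against 368, 280.5 and 309 CPM in Ctrl 1, 2 and 3 (−0.95, SE 0.335, edgeR adjusted p = 0.103). None of these 3 genes had overlapping groups, as in 37.9% of all genes tested. None of the 3 passed, so the largest positive and negative estimates of this class both stayed short of the threshold. Mrpl49 shares 91 exonic bases with Syvn1 on the opposite strand, and reads there cannot be told apart because the preparation does not mark strand. Syvn1 had a log2 fold change of 0.19.

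In the small subunit, none of the 16 members with a bacterial homolog and none of the 10 mitochondria-specific members passed, and their median log2 fold changes were 0.40 and 0.05. In edgeR 3 of the 16 (18.8%) and 2 of the 10 (20.0%) had an unadjusted p below 0.05, beside 30.5% of all genes tested. DESeq2 called Mrps24 and Mrps22, beside 22.1% of all genes. Mrps24, the homolog of bacterial S3 at the entry of the messenger RNA channel, had 87.0, 131 and 164 CPM in KO 1, 2 and 3, against 71.5, 51.5 and 57.9 CPM in Ctrl 1, 2 and 3 (log2 fold change 1.08, SE 0.296, edgeR adjusted p = 0.0556). Mrps22, a mitochondria-specific protein, had 41.4, 28.4 and 38.1 CPM in KO 1, 2 and 3, against 70.8, 60.2 and 71.0 CPM in Ctrl 1, 2 and 3 (−0.91, SE 0.246, edgeR adjusted p = 0.0541). In these 2 genes the groups did not overlap, as in 37.9% of all genes tested, and their estimates had opposite signs.

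**Figure D2:**
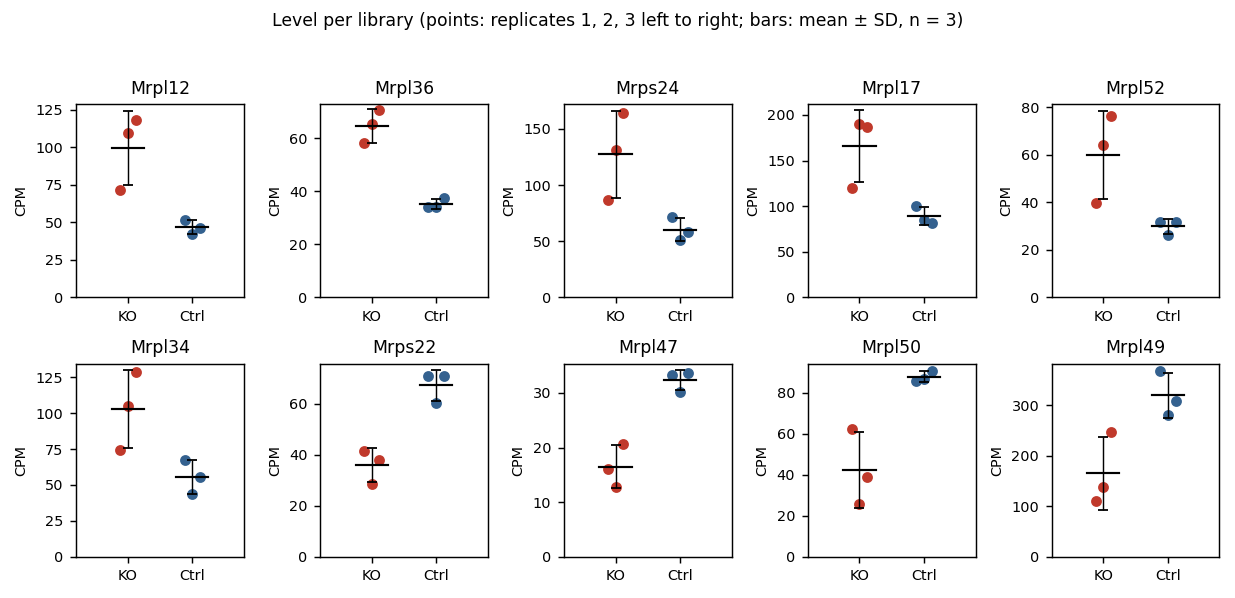
Level in CPM (vertical axes, from 0) of the 10 members with the smallest unadjusted p in each KO library (red) and Ctrl library (blue), replicates 1 to 3 from left to right, with the mean and SD of 3 libraries (bars). In each of the 10 panels the groups do not overlap, which choosing genes by p favours. The groups do not overlap in 37.9% of all genes tested. Mrpl12 reads 71.8 to 118 CPM in KO and 42.3 to 51.6 CPM in Ctrl, and Mrpl49 reads 110.3 to 247 CPM in KO and 280.5 to 368 CPM in Ctrl.

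The 3 Mrps18 genes encode relatives of bacterial S18 of which each ribosome holds several: Mrps18a in the large subunit, Mrps18b and Mrps18c in the small. Their log2 fold changes were −0.04 (SE 0.31), −0.03 (SE 0.343) and −0.11 (SE 0.26), in the order Mrps18a, Mrps18b and Mrps18c. In all 3 the KO and Ctrl libraries overlapped. Mrps36, now known as a component of the 2-oxoglutarate dehydrogenase complex and not of the ribosome, had 2.27, 2.95 and 4.97 CPM in KO 1, 2 and 3, against 2.9, 3.63 and 3.26 CPM in Ctrl 1, 2 and 3. Its log2 fold change was 0.06 (SE 0.449), from 50 to 145 counts per library, the fewest of any member.

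The members with the highest CPM, without correction for length, were Mrpl49, Mrpl28, Mrpl4, Mrpl37 and Mrpl2. Mrpl28, the L28 homolog, averaged 255 ± 58.5 CPM in KO and 189.7 ± 55.9 CPM in Ctrl (SD, n = 3 each; log2 fold change 0.43, SE 0.3). Mrpl4, whose bacterial homolog L4 lines the exit tunnel, averaged 206 ± 84.5 CPM in KO and 121 ± 32.7 CPM in Ctrl (0.77, SE 0.374). Mrpl2, the homolog of L2 near the peptidyl transferase centre, averaged 171 ± 86.7 CPM in KO and 137 ± 44.0 CPM in Ctrl (0.32, SE 0.407). The mitochondria-specific Mrpl37 averaged 148 ± 36.4 CPM in KO and 162 ± 51.2 CPM in Ctrl (−0.13, SE 0.31). None of these 4 passed the test, and in each the groups overlapped.

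The spans of 21 members overlap that of another gene of the table, and how reads in such stretches were counted is not given in the sources used here. In 14 of the 21 exonic bases are shared. The other gene lies on the opposite strand for 18 members, where an unstranded preparation cannot tell reads apart, and on the same strand for Mrpl53, Mrps6 and Mrps23. In 4 of the 21 the other gene held more counts: Mrpl18 (log2 fold change 0.24) with the chaperonin gene Tcp1 (−0.03), Mrpl24 (0.35) with Rrnad1 (−0.55), Mrpl48 (0.49) with Rab6a (−0.00), a Golgi GTPase, and Mrps23 (0.13) with Cuedc1 (−0.57). None of these 4 members passed.

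The deposited table of the authors, which used a DESeq2 fit, gives 9 members with an adjusted p below 0.05, beside 21.8% of all its genes with an adjusted p (13.6% higher and 8.20% lower). In the authors' deposited table Mrpl12, Mrpl17, Mrpl34, Mrpl36, Mrpl52 and Mrps24 are higher in KO, and Mrpl47, Mrpl50 and Mrps22 lower. Its log2 fold change of Mrpl12 is 1.19 (SE 0.321, adjusted p = 0.00247 in the authors' deposited table). A DESeq2 fit to the deposited counts called the same 9 members, beside 22.1% of all genes (12.6% higher and 9.49% lower).

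Of the 13 alternatives, leaving out KO 1 gave the most calls among the members. Without it 20 members were higher (25.6%) and 4 lower (5.13%), beside 15.2% higher and 14.5% lower of all genes. The 24 members make up 30.8% of the list, near the 29.7% of all genes called in either direction. By direction the members' share was larger than that of all genes on the higher side and smaller on the lower. Without KO 3 no member was called (12 had an unadjusted p below 0.05), beside 5.23% of all genes (3.02% higher and 2.22% lower). Without KO 2, or without any 1 of the Ctrl libraries, edgeR called no gene of the table at all, though between 3434 and 4005 genes had an unadjusted p below 0.05. The median log2 fold change of the members lay between 0.15 and 0.34 in these 6 fits.

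Members with more GC had higher estimates. Over the 78 members the log2 fold change correlated with the GC content of the coding sequence at r = 0.657 (Spearman's rho 0.654), and with that of the whole transcript at r = 0.517. Over all genes tested the correlation was r = 0.355 with coding GC (14636 genes with a value) and r = 0.368 with transcript GC. These are correlations across genes of the same 6 libraries, and genes are not independent replicates. By coding GC, the 26 members lowest in GC (41.6% to 51.4%) had a median log2 fold change of 0.02, the middle 26 (51.5% to 55.7%) 0.15 and the highest 26 (56.0% to 65.6%) 0.59. Mrpl12 (59.7%), Mrpl36 (59.5%), Mrps24 (61.1%) and Mrpl34 (65.6%) are among the highest 26, and Mrpl47 (45.0%), Mrpl50 (45.9%) and Mrps22 (47.3%) among the lowest 26.

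The libraries differed by GC within each group as well. The deviation of a member's log2 CPM from its mean over 6 libraries correlated with its transcript GC at r = −0.325 in KO 1, 0.608 in KO 2 and 0.649 in KO 3, against −0.0681 in Ctrl 1, −0.641 in Ctrl 2 and −0.581 in Ctrl 3. KO 1 and Ctrl 1 thus stood apart from the other 2 libraries of their groups. Over all genes tested the same correlations were −0.252, 0.47 and 0.58 in KO 1, 2 and 3 and 0.00791, −0.5 and −0.463 in Ctrl 1, 2 and 3. With a trend on transcript GC removed from each library, 4 members were higher and 0 lower (Mrpl12, Mrpl36, Mrps14 and Mrps24), beside 12.3% of all genes called (6.54% higher and 5.79% lower). With coding GC in its place, Mrpl12 was higher (0.70, adjusted p = 0.035) and Mrps30 lower (−0.70, adjusted p = 0.048, range 0.048 to 0.857 over 13 alternatives), beside 11.8% of all genes called in edgeR's quasi-likelihood test (6.31% higher and 5.44% lower). Mrps14, the S14 homolog, and Mrps30 were named after their values were seen. Mrps14 passed in no other alternative: its log2 fold change was 1.04 with transcript GC offsets (edgeR adjusted p = 0.0445, range 0.0445 to 0.769 over 13 alternatives), 0.35 with coding GC offsets and 0.26 with none. Transcript GC is doubtful for 6 other members (Mrpl32, Mrpl51, Mrpl57, Mrps16, Mrps17 and Mrps26), whose matched GENCODE transcript is longer than the deposited length. With coding GC offsets Mrpl36 had a log2 fold change of 0.51 (edgeR adjusted p = 0.129), and with transcript GC offsets 0.87 (edgeR adjusted p = 0.025). The median of the members was 0.20 with transcript GC and 0.18 with coding GC, and 57 estimates were above 0 with coding GC offsets.

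**Figure D3:**
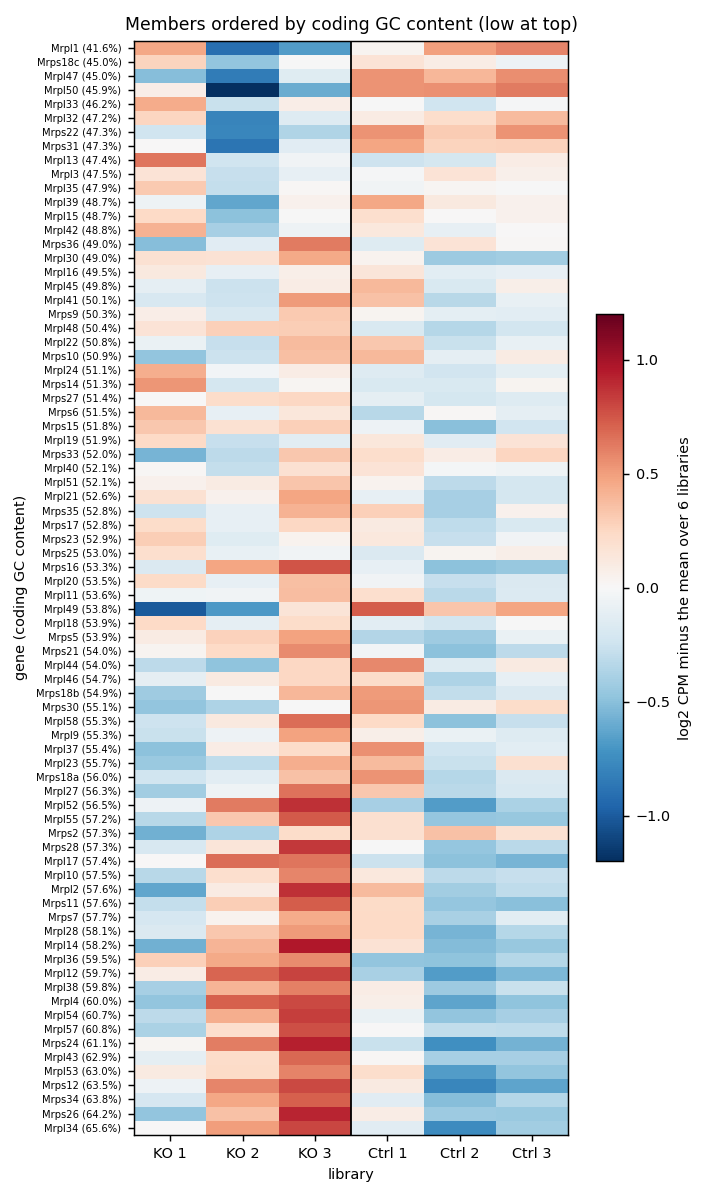
Log2 CPM of each member (rows, from the lowest coding GC content at the top to the highest at the bottom) minus its mean over the 6 libraries (columns, KO left of Ctrl), in red where above and blue where below that mean. KO 2 and KO 3 are mostly below at the low-GC end and above at the high-GC end, Ctrl 2 and Ctrl 3 run the other way, and KO 1 and Ctrl 1 show weaker trends.

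**Figure D4:**
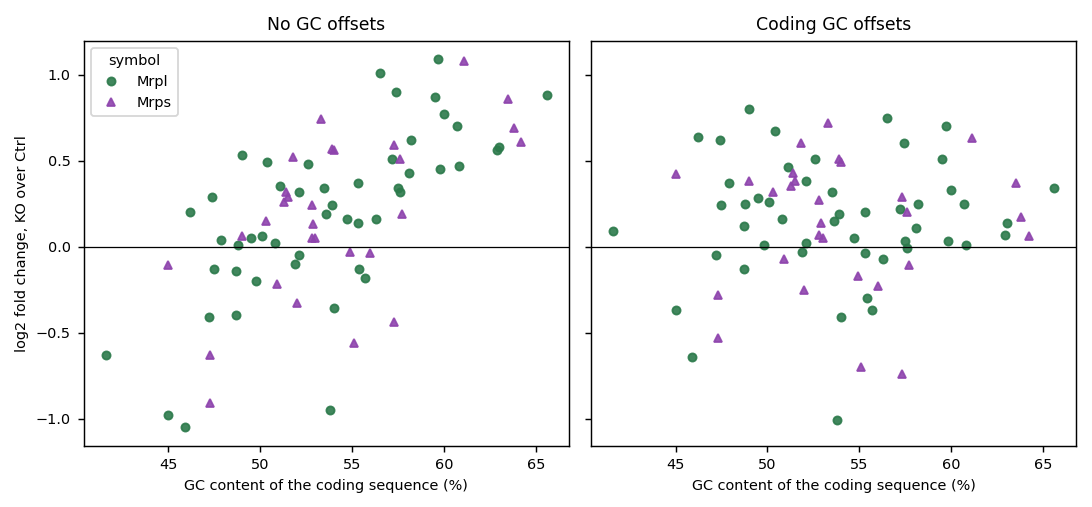
Log2 fold change of KO over Ctrl (vertical axis) against GC content of the coding sequence in percent (horizontal axis) for 78 members, Mrpl as green circles and Mrps as purple triangles, without GC offsets (left) and with coding GC offsets (right). The slope on the left, r = 0.657 across genes, is absent on the right, where r is 0.0453. The offsets were fitted over all genes tested, which takes out the trend over all genes but does not fix r of the members.

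The cytosolic ribosome translates the messenger RNAs of nuclear genes. Of 85 cytosolic ribosomal protein genes tested, 36 were higher in KO and 0 lower (42.4%), with a median log2 fold change of 1.03. Their summed level was 6553, 7838 and 8979.6 CPM in KO 1, 2 and 3, against 3733, 3014 and 3217 CPM in Ctrl 1, 2 and 3. These sums did not overlap between groups, whereas those of the mitochondrial members did; no test of the difference between the lists was made. Many cytosolic ribosomal genes have processed copies elsewhere in the genome, and how such reads were counted is not given in the sources used here. Past the adjusted threshold, 5.85% of all genes tested were higher and 4.44% lower. Of 81 nuclear genes for respiratory chain and ATP synthase subunits, 3 were higher (Atp5e, Cox6b1 and Uqcrh, 3.7%) and 1 lower (Ndufs1, 1.23%), with a median of 0.47. These subunits join the products of the mitochondrial ribosome in the same complexes. Their summed level was 16765, 21658 and 27981 CPM in KO 1, 2 and 3, against 18604, 13682 and 15525 CPM in Ctrl 1, 2 and 3, and the groups overlapped.

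**Figure D5:**
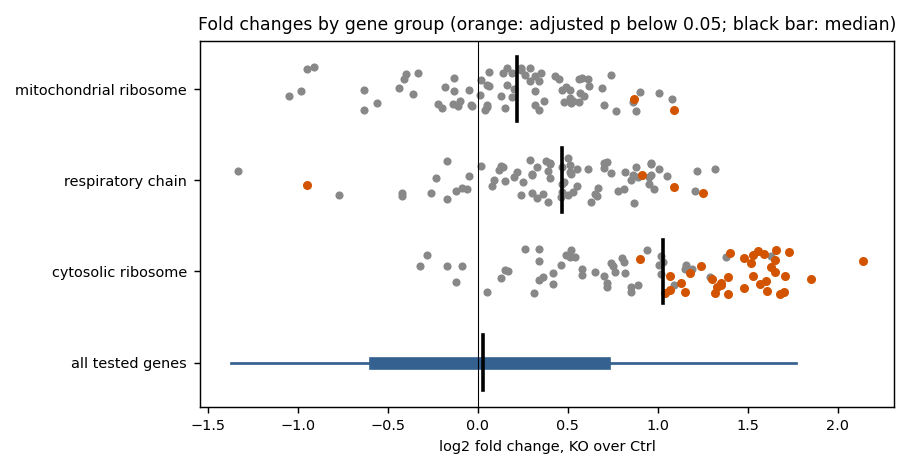
Log2 fold change of KO over Ctrl (horizontal axis) of single genes (points) in the mitochondrial ribosome, the respiratory chain and the cytosolic ribosome, with adjusted p below 0.05 in orange and the median as a black bar. The lowest row gives all genes tested, with the box from the 25th to the 75th percentile and the line from the 5th to the 95th (−1.37 to 1.77); the medians are 0.22, 0.47, 1.03 and 0.03 from top to bottom.

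Genes that make and serve the mitochondrial ribosome had estimates on both sides of 0. Among 5 ribosomal proteins with other symbols none passed in edgeR or DESeq2. Of these 5, 1 (20.0%) had an unadjusted p below 0.05 in edgeR, beside 30.5% of all genes tested. Dap3 and Gadd45gip1 each had a log2 fold change of 0.39, Aurkaip1 0.53 and Ptcd3 −0.94. Among 16 mitochondrial translation factors and activators, 1 rose and 1 fell (6.25% each), near the 5.85% and 4.44% of all genes tested. Taco1, an activator of translation of the cytochrome oxidase subunit Cox1, had 14.6, 19.2 and 20.8 CPM in KO 1, 2 and 3, against 6.77, 5.94 and 5.67 CPM in Ctrl 1, 2 and 3 (1.57, SE 0.305, edgeR adjusted p = 0.0243). Lrpprc, which stabilises mitochondrial messenger RNAs, had 55.7, 53.1 and 52.4 CPM in KO 1, 2 and 3, against 143, 129.5 and 128 CPM in Ctrl 1, 2 and 3 (−1.32, SE 0.212, edgeR adjusted p = 0.0213). In both genes the groups lay far apart relative to their spread. Over 13 alternatives Taco1 passed in 7 (edgeR or DESeq2 adjusted p 5.33e-05 to 0.134) and Lrpprc in 8 (1.02e-05 to 0.126). The elongation factor Gfm1 (0.90) and the release factor Mtrf1 (−1.07) did not pass in the main edgeR fit. DESeq2 called both (DESeq2 adjusted p = 0.0229 and 0.0323), beside 22.1% of all genes. Gfm1 passed in 4 of the 13 alternatives and Mtrf1 in 1.

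None of 26 genes for ribosome assembly and modification of its RNA passed in edgeR, and their median log2 fold change was −0.36. In edgeR 2 of them (7.69%) had an unadjusted p below 0.05, beside 30.5% of all genes tested. DESeq2 called Gtpbp10, beside 22.1% of all genes. The 4 of this list with the smallest p were Gtpbp10 (−1.26), Nsun4 (−0.58), Mterf3 (−0.57) and Mterf4 (−0.88). Of 17 mitochondrial aminoacyl-tRNA synthetases, which charge the transfer RNAs, 1 rose and 0 fell, with a median of −0.22. The share that rose, 5.88%, was near the 5.85% of all genes tested. Lars2, which charges leucine, had 220.5, 171 and 116 CPM in KO 1, 2 and 3, against 62.0, 51.5 and 54.5 CPM in Ctrl 1, 2 and 3 (1.60, SE 0.289, edgeR adjusted p = 0.023). It passed in 8 of 13 alternatives (edgeR or DESeq2 adjusted p 4.43e-05 to 0.126). Hars2 (−0.80), Rars2 (−0.95) and Nars2 (−0.70), for histidine, arginine and asparagine, did not pass in the main edgeR fit. They passed in 3, 2 and 1 of the 13 alternatives, in that order. Of 12 genes for transcription and upkeep of mitochondrial DNA, 0 rose and 2 fell (16.7%), beside 4.44% lower of all genes tested. The 2 that fell were Mterf2 (−1.70, edgeR adjusted p = 0.0299) and the elongation factor Tefm (−1.11, edgeR adjusted p = 0.0496). Neither passed with GC offsets: Mterf2 had −1.16 with transcript GC and −0.92 with coding GC (edgeR adjusted p = 0.0565 and 0.134), and Tefm −0.70 and −0.64 (0.2 and 0.263). Over 13 alternatives Mterf2 passed in 6 (adjusted p 0.000235 to 0.134) and Tefm in 3 (0.00855 to 0.263), and Tefm was lost with DESeq2 size factors (0.0513). The packaging factor Tfam (−0.44) and Mterf1a (−1.34) did not pass.

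Of 10 nuclear activators of mitochondrial genes, 1 rose and 1 fell. Myc, a transcription factor of growing cells, had 66.8, 124 and 98.6 CPM in KO 1, 2 and 3, against 40.4, 35.4 and 40.3 CPM in Ctrl 1, 2 and 3 (1.32, SE 0.279, edgeR adjusted p = 0.0302). Ppargc1a, the coactivator PGC-1 alpha, had 13.3, 10.8 and 15.9 CPM in KO 1, 2 and 3, against 34.2, 38.4 and 43.2 CPM in Ctrl 1, 2 and 3 (−1.54, SE 0.275, edgeR adjusted p = 0.0229). Over 13 alternatives Myc passed in 7 (edgeR or DESeq2 adjusted p 0.00113 to 0.145) and Ppargc1a in 8 (2.57e-05 to 0.126). Nrf1 (−0.69) and Esrra (0.70) did not pass in the main edgeR fit, and in the 13 alternatives Nrf1 passed in 1 and Esrra in 0.

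Facts of the libraries bear on each of these values. Totals were 25016982 to 30692948 counts in KO and 14581701 to 28969300 in Ctrl. Rnf20 itself had 39.1, 31.0 and 31.7 CPM in KO 1, 2 and 3, against 47.9, 57.1 and 56.8 CPM in Ctrl 1, 2 and 3 (log2 fold change −0.67, SE 0.235, edgeR adjusted p = 0.101), and the counts cover its whole span. Xist, the RNA of the inactive X of females, had 14, 111 and 1 counts in KO 1, 2 and 3, against 3174, 5058 and 3178 in Ctrl 1, 2 and 3. The Y-linked Ddx3y had 3866, 600 and 809 counts in KO 1, 2 and 3, against 3, 0 and 2 in Ctrl 1, 2 and 3. Sex and genotype cannot be told apart in these libraries.

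Endothelial markers were present in every library, and the other cell types of the retina were too. Of 15 endothelial markers 10 were higher and 0 lower in KO, with summed levels of 11428 to 15631 CPM in KO and 3708 to 5657 CPM in Ctrl. Of 14 photoreceptor markers 0 were higher and 3 lower, with summed levels of 5116, 10251 and 24089 CPM in KO 1, 2 and 3, against 35170.1, 20254 and 23124 CPM in Ctrl 1, 2 and 3. KO 3, where most members were highest, had a photoreceptor sum within the Ctrl range, and a mural cell sum (386 CPM) within it too. Its sums were above the Ctrl range for endothelium (11890.4 CPM), glia (5546 CPM), microglia (2194 CPM) and erythroid cells (685 CPM). For inner retinal neurons its sum (1768 CPM) was below that range. Inner retinal neurons (0 higher and 4 lower of 14) summed to 969 to 1768 CPM in KO and 3018 to 3361 CPM in Ctrl, glia (4 and 0 of 10) to 2554 to 16933 CPM in KO and 1935 to 2596 CPM in Ctrl, and microglia (0 and 0 of 12) to 221 to 11444 CPM in KO and 231 to 1372 CPM in Ctrl. Mural cells (1 and 0 of 10) summed to 386 to 804 CPM in KO and 183 to 868 CPM in Ctrl, and erythroid cells (5 and 0 of 6) to 459.8 to 685 CPM in KO and 61.7 to 98.2 CPM in Ctrl. The markers at 0 in some library were Gad1, Slc32a1, Aqp4 and Slc4a1. The part of cell makeup in the members' values was not tested, and in bulk samples fewer cells of a type and less RNA per cell cannot be told apart.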

How the data were processed

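PolyA RNA was reverse transcribed, amplified by PCR with template switching, tagmented and read as single reads of 50 bases on a BGISEQ-500, per the labels' protocols. The build was mm10, and Trimmomatic 0.36, deepTools, STAR, edgeR and DESeq2 were among the tools, per the submitters' processing notes. The read counter and its annotation: not given in the sources used here. Per the file headers, the authors deposited raw counts, normalized counts (a signal, the count divided by a constant of each library) and RPKM, and, from their comparison, a log2 fold change with its SE, a test statistic (a score), a p-value and an adjusted p-value. RPKM was not used, because the deposited length was within 2% of the genomic span for 61 of 78 members, introns included. One Ctrl count column carried a name unlike its replicate number and was taken as Ctrl 3, since it is a constant multiple of that normalized column. All levels given here come from the raw counts.

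Counts were tested by edgeR 4.0.16 in R 4.3.3 (quasi-likelihood test, TMM, filterByExpr, no covariate, two-sided, Benjamini-Hochberg adjustment over 16217 genes). SE is the log2 fold change divided by the square root of F. Alternatives included DESeq2 1.42.0 and offsets from a smooth trend (lowess span 0.3) of each library on GC content. The coding GC offsets were chosen after seeing the data. The scripts were tested on simulated data. There the comparison of KO with Ctrl called 0 of 50 genes with a true log2 fold change of 1. It called 0 of 50 at −1, 25 of 50 at 2, 16 of 50 at −2 and 2 of 15672 at 0. A gene that did not pass is therefore not shown to be unchanged. Nothing in the labels says that pups were of separate litters, so p-values measure the spread between these libraries. Coordinates and promoters are from RefSeq on GRCm38.p6, GC content from GENCODE M21. Summaries and plots used matplotlib 3.10.9, scipy 1.17.1, numpy 2.4.6 and pandas 2.3.3 in Python 3.11.15.

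The members, roles and lists were chosen with earlier results of these data known. Named members are the 10 with the smallest p (fewer than 10 passed), the 5 with the highest level, the 3 largest changes each way, the Mrps18 genes, Mrps36 and Mrpl12, those overlapping a gene with more counts, up to 4 of each pathway list and Rnf20.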

Additional observations from a re-analysis of the deposited data

How the results depend on the processing

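Over the 13 alternatives, no named gene that passed in either fit and no count or median changed direction. DESeq2 raised the counts of all genes to 2027 higher and 1529 lower, and of members to 6 higher and 3 lower (Mrpl 5 and 2, Mrps 1 and 1). Without a filter on low counts 1 member, an Mrpl gene, was higher. With transcript GC offsets 4 members were higher (Mrps 2), and with coding GC offsets 1 was higher, an Mrpl gene, and 1 lower, an Mrps gene. DESeq2 size factors, or the entry with the highest count, left 2 members higher and 0 lower. The cause of these differences was not tested. Leaving out each library in turn gave 0 to 2520 genes higher and 0 to 2407 lower, 0 to 20 members higher and 0 to 4 lower, 0 to 12 Mrpl genes higher and 0 to 3 lower, and 0 to 8 Mrps genes higher and 0 to 1 lower. Such fits have fewer libraries, and a count of 0 does not show that a result rests on the library left out. The members' median stayed between 0.15 and 0.34. Of the comparisons of single named genes with their alternatives, 496 kept direction and side of the threshold, 58 lost a call, 34 gained one and 23, of genes past the threshold in neither fit, changed sign. With transcript GC offsets the sign changed for Mrpl28 (−0.01), Mrpl2 (−0.13) and Mrps18c (0.11), and with coding GC offsets for Mrpl2 (−0.01), Mrps18c (0.42), Gadd45gip1 (−0.12), Mterf3 (0.28) and Tfam (0.09). Mrps18b came to 0.0 with DESeq2 and with its size factors. Leaving out each library gave ranges across 0 for Mrpl37 (−0.28 to 0.15), Mrpl2 (−0.08 to 0.68), Mrps18a (−0.21 to 0.28), Mrps18b (−0.2 to 0.26), Mrps18c (−0.22 to 0.09) and Mrps36 (−0.27 to 0.34).

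With the replicate number as a block, edgeR called 1 gene of the table higher and 0 lower, 0 members and 0 Mrpl genes (Mrps36 had −0.02), with 3407 genes at an unadjusted p below 0.05. The numbers are shared but nothing in the labels pairs the pups: deviations of same-numbered libraries correlated at −0.394, 0.073 and −0.264. The least covered member had 50 counts in its lowest library, and each group had 3 libraries.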
